A study of Mus musculus with 2 samples.

Results

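Early suprabasal cells of mouse esophageal organoids are described here, as 70 of the 1099 cell barcodes of the series. Epithelium of the esophagus and the stomach of wild-type mice was grown as organoids and dissociated, each tissue received a MULTI-seq tag, a lipid-anchored DNA barcode, and the pooled cells entered 1 droplet run that counted transcripts as unique molecular identifiers (UMIs). The labels call both organoids untreated. Esophageal organoids had grown in a medium with EGF, noggin, FGF-10, N-acetylcysteine, nicotinamide, forskolin and inhibitors of the TGF-β receptor kinase and of ROCK. Cells from several mice were combined, and neither the strain nor the age is given in the labels. Each tissue was 1 sample, so the differences below lack replicates and carry no p-value. Organoids of this kind hold epithelium without the fibroblasts, immune cells and muscle of the esophageal wall.

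The esophageal tag held 919 barcodes, of which 798 had at most 20% mitochondrial UMIs and 485 of these at least 10000 UMIs. In 455 of them Krt5, Krt14, Krt6a and Krt13 made up at least 75% of the UMIs of these squamous keratins plus the columnar keratins Krt8 and Krt18. The 20 cells highest in 6 genes of the superficial layers (Nccrp1, Mal, Krt23, Clca3b, Duoxa2 and Wfdc12) were set aside and are called the superficial cells. The other 435 cells were ranked by the summed level of 7 markers, Ly6d, Rhov, Capns2, Pla2g4e, Cyp4f39, Slc6a20a and Defb1, and the first 70 are the members. The remaining 365 are the other cells. Because the members were chosen by expression in these same cells, every difference between them and the other cells is a description, without a test. No barcode was shared by the 2 tags.

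The stratified epithelium of the esophagus renews from a basal layer that sits on laminin and divides. Daughter cells leave the basement membrane, stop dividing, exchange basal keratins for those of the suprabasal layers, strengthen their desmosomes and prepare the proteins and lipids of the barrier, and superficial cells are then shed into the lumen. In stratified epithelia the passage out of the basal layer is known to involve Notch signaling and the transcription factors KLF4, GRHL3, OVOL1 and ZNF750 (Zfp750 in the mouse).

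Depth was similar in both groups. The members held 3018294 UMIs, with 10091 to 169924 per cell and a median of 36542.5, and the other cells 16097756, with a median of 42654. The median mitochondrial share was 3.76% in the members and 3.96% in the other cells, and the median share of stomach tag among both tags was 10.3% and 13.5%. Levels are given per cell as UMIs per 10000 UMIs, or for a group as counts per 1000000 (CPM) of its summed UMIs. Intervals of levels, ratios and shares are exact 95% intervals for counting error only, since cells of 1 sample are not replicates. A count of 0 allows up to 3 counts, which is 0.994 CPM over the members and 0.186 CPM over the other cells. A gene counted as measured when both groups together held at least 100 UMIs. This held for 8826 genes, with a median log2 ratio of members over other cells of -0.19.

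The summed marker level ran from 102.0 per 10000 UMIs in the first cell to 24.1 at rank 35 and 5.03 at rank 70. The cells just inside the limit had 5.18, 5.17 and 5.03, and those just outside 4.20, 4.14 and 3.98, so no gap separated the members from the next cells. The median was 23.9 in the members and 0.304 in the other cells, 92 of which were at 0. Ly6d, a GPI-anchored surface protein of the Ly6 family, supplied 92.5% of the members' marker UMIs, so the ranking was in the main a ranking by Ly6d.

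**Figure D1:**
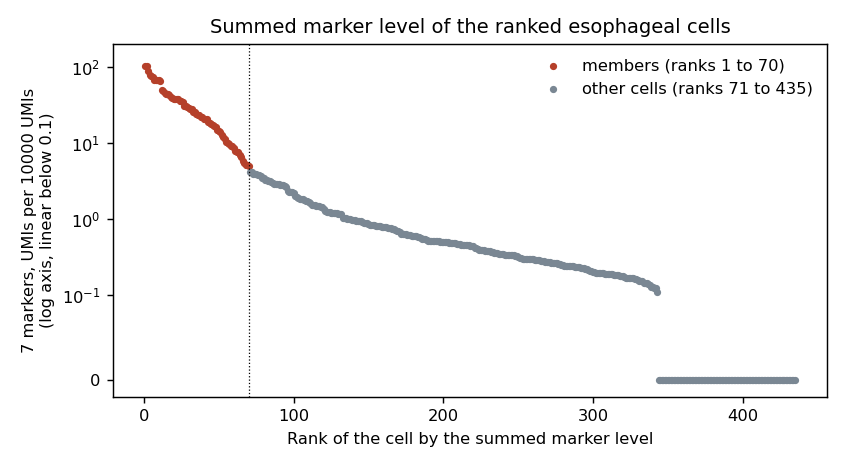
The summed level of the 7 selecting markers (UMIs per 10000 UMIs, log axis that is linear below 0.1) is plotted against the rank of each of the 435 ranked cells, with the 70 members in red and the 365 other cells in gray. The level runs on without a gap across the dotted line, from 5.03 at rank 70 to 4.20 at rank 71.

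The markers were therefore read one by one. Ly6d lay between 4.19 and 98.8 per 10000 UMIs in the members, with a median of 23.3, and between 0 and 3.67 in the other cells, with a median of 0.26. Rhov, an atypical small GTPase, was at 95.7 CPM in the members and 6.71 in the other cells. Cyp4f39, a fatty acid hydroxylase of skin ceramide synthesis, was at 43.4 and 1.18 CPM, and Capns2, a small calpain subunit, at 43.4 and 1.74 CPM. The other 3 markers were lower still. Pla2g4e, a cytosolic phospholipase, was at 28.2 and 0.994 CPM, Defb1, a β-defensin, at 25.8 and 1.80, and Slc6a20a, an imino acid transporter, at 20.2 and 0.373. Slc6a20a did not reach the minimum for a measured gene.

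No cell held the whole set at equal depth. With each cell thinned to 10000 UMIs, the members had a median of 2 of the 7 markers (1 to 6), 30 of 70 had at least 3, and 20 had only 1. Of the other cells 5 of 365 had at least 3, and these 5 were all among ranks 71 to 140. In the 85 columnar cells of the stomach tag, which should lack squamous genes, Ly6d stood at 2935 CPM, near the 3179 CPM of the members, and the summed level of the 7 markers had a median of 26.7 per 10000 UMIs. The other 6 markers together reached 2.87 CPM (1.80 to 4.35) in those columnar cells, against 256.8 in the members and 12.8 in the other esophageal cells. Ly6d was thus nearly as abundant in columnar cells as in the members picked for it. At 10000 UMIs Rhov was seen in 47.1% of members, 5.75% of other cells and 2.35% of columnar cells.

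The label was checked against lists of squamous genes. In the members, genes of the suprabasal layers stood far above the other cells and genes of the basal layer and of the cell cycle stood below, while genes of the last squamous stage lay between the other cells and the superficial cells. Among all measured genes, 368 (4.17%) were at least 2-fold higher in the members and 920 (10.4%) at least 2-fold lower. Of 25 measured suprabasal genes 21 were at least 2-fold higher and none lower, with a median log2 ratio of 1.995. Of 23 measured late squamous genes 20 were higher and none lower, with a median of 3.14. Of 19 measured basal genes none was higher and 12 lower, with a median of -1.34. The lower basal and higher suprabasal genes fit the word suprabasal. Late squamous genes stood further above the other cells than suprabasal genes, with medians of 3.14 and 1.995. The word early thus rests on late squamous genes being below the superficial cells, which were set aside by genes of that stage. Since cells were picked by genes of the same program, the counts do not stand as independent evidence for the name.

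**Figure D2:**
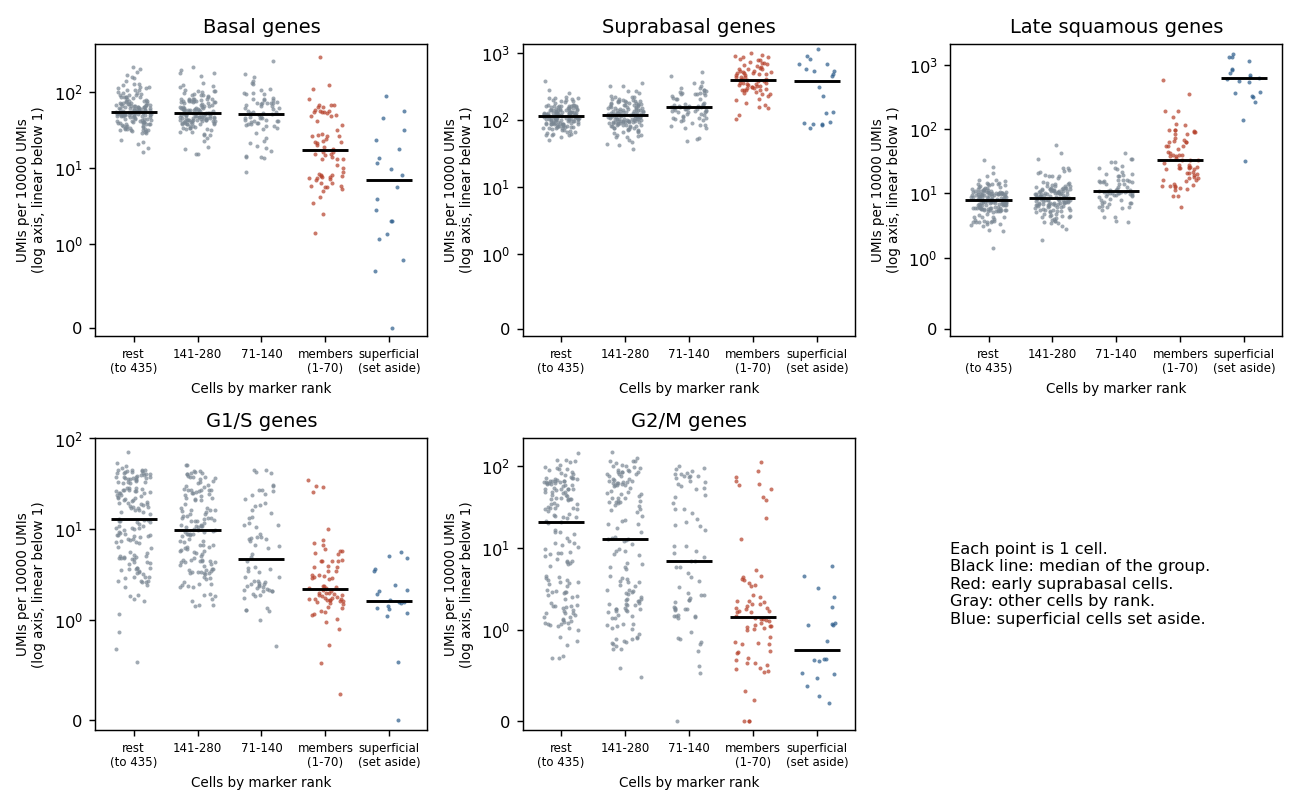
Each point is 1 cell, placed by its summed level of 1 gene list (UMIs per 10000 UMIs, log axis that is linear below 1), in groups by marker rank from left to right and with the 20 superficial cells at the far right; black lines are medians. The members, in red, have a median of 16.97 for basal genes against 53.1 in the other cells, 403.9 against 121.8 for suprabasal genes, and 32.4 against 8.83 for late squamous genes.

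Suprabasal genes made up 47108 CPM of the members' UMIs, 13437 CPM of those of the other cells and 42316 CPM of those of the superficial cells. Per cell, 68 of 70 members lay above the median of the other cells and 22 above their highest cell. Dmkn, which encodes the secreted protein dermokine, lay between 2.76 and 85.2 per 10000 UMIs in the members, with a median of 31.3, and had a median of 2.20 and a highest cell of 58.4 in the other cells. The groups overlapped, and the summed level was 3877 CPM against 390.1, a ratio of 9.94 (9.64 to 10.2). Krt16, a keratin of activated suprabasal cells, had a median of 6.39 and a highest cell of 266.9 in the members, and a median of 0.33 and a highest cell of 48.9 in the other cells. Its ratio was 9.99 (9.56 to 10.45). Krt6b, its usual partner in stressed epithelium, was at 625.2 and 20.2 CPM, and Spink5, the serine protease inhibitor LEKTI, at 341.6 and 10.2 CPM. For Spink5 1 member held 31.8% of the members' UMIs. Krt6b was uneven too, from 0 in some members to 115.6 per 10000 UMIs in the highest. The member with the most UMIs, 169924, was at 31.2 per 10000. Krt6b shares sequence with Krt6a, so the counts of both may have been affected.

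A few abundant genes were named after their values were seen. Fabp5, the epidermal fatty acid binding protein, had a median of 114.4 per 10000 UMIs in the members (1.45 to 366.2) and of 24.1 in the other cells (0.83 to 278.1), and was at 15377 and 3856 CPM. In the superficial cells it was at 5589 CPM, but their median was 4.33 per 10000 UMIs (0.20 to 315.8), below both other medians, so a few cells carried that sum. Krtdap, a secreted protein of the first suprabasal layers of skin, was at 4812 CPM in the members, 651.6 in the other cells and 2168 in the superficial cells, with medians of 35.9, 4.17 and 2.74 per 10000 UMIs. Alox15, the 15-lipoxygenase, was at 39.1, 2.11 and 4.02 CPM, but only 18 members had a UMI of it and 1 of them held 28.0%. The selecting marker Capns2 was at 8.04 CPM in the superficial cells. Lgals7, also on the suprabasal list, was not higher in the members, at 2611 against 3012 CPM.

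The keratins that selected all squamous cells differed among themselves. Krt5 was alike in both groups, at 3253 CPM in the members and 3295 in the other cells, and Krt14 was at 5875 and 3619 CPM. Krt13, the keratin of the esophageal suprabasal layers, had a median of 100.3 per 10000 UMIs in the members (0.45 to 291.3) and was at 10878 CPM against 1641. Krt6a was at 5554 against 1223 CPM. The members therefore kept the basal keratin pair Krt5 and Krt14 at or above the level of the other cells while holding several times more Krt13.

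The rest of the basal program was lower. Krt15, a keratin of basal and stem cells, had a median of 0.31 per 10000 UMIs in the members, where the highest cell reached 39.1, and a median of 6.71 and a highest cell of 123.1 in the other cells. It was at 233.2 and 983.4 CPM. Itga3, an integrin subunit that binds laminin, had a ratio of 0.263 and Lamb3, a chain of laminin-332, of 0.279. Dlk2, a Delta-like transmembrane protein, was at 1.99 CPM against 22.8, a ratio of 0.0872 (0.0318 to 0.192). Genes named after their values were seen showed how far apart the basal list ran. Col17a1, a hemidesmosome collagen, was at 63.6 and 224.3 CPM, Itgb4 at 100.1 and 253.6, and Trp63, the master regulator of stratified epithelium, at 69.6 and 131.3. Itga6 and Cd44 stayed within 2-fold, at 110.7 against 162.9 CPM and 178.6 against 144.7 CPM. Summed basal genes lay below the median of the other cells in 55 of 70 members and below their lowest cell in 24, yet 1 member lay above their highest cell.

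Late squamous genes were low in the members when set beside the superficial cells. Summed, the list came to 6000 CPM in the members, 1011 in the other cells and 70859 in the superficial cells. The superficial cells were themselves picked by genes of that stage, so this order was partly fixed by the choice. Tmprss11d, a transmembrane serine protease of squamous and airway epithelium, had UMIs in 29 members and in 3 of the 365 other cells, at 38.8 and 0.249 CPM, with a ratio of 156.0 (59.3 to 582.1). It was at 104.5 CPM in the superficial cells. Klk13, a kallikrein protease, was at 40.4, 0.932 and 305.4 CPM in the members, other cells and superficial cells. Endou, an endoribonuclease, was at 38.1 CPM in the members, with 46.1% of its UMIs in 1 cell, and Sprr3, a cornified envelope precursor, at 29.8 CPM.

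Some of the best known envelope genes, named after their values were seen, were not part of this difference. Lor, which encodes loricrin, was at 6.29 CPM in the members and 9.82 in the other cells, and Ivl, for involucrin, at 4.64 and 6.40. Others were present but far below the superficial cells. Sprr2f was at 175.3 CPM in the members and 19820 in the superficial cells, with 53.9% of the members' UMIs in 1 cell, and Cnfn, for cornifelin, at 174.9 and 4519 CPM. Reads of Sprr2 genes can match more than 1 near-identical copy, which may have affected their counts.

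Cell cycle genes were lower in nearly every measured case. All 35 measured G2/M genes and 29 of 30 G1/S genes were at least 2-fold lower in the members, all but Ccne1 (12.6 against 19.7 CPM), with median log2 ratios of -1.56 and -2.03. Among G1/S genes, Hells, a chromatin remodeler of replicating cells, was at 9.61 against 83.4 CPM, a ratio of 0.115. Mcm5, a subunit of the replicative helicase, was at 10.6 and 58.0 CPM, and Uhrf1, which guides DNA methylation at replication, at 7.62 and 42.7. Among G2/M genes, Anln, a contractile ring scaffold, was at 11.3 and 58.2 CPM, and the kinesins Kif11 and Kif2c and the checkpoint kinase Bub1b had ratios from 0.188 to 0.226.

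The G2/M list divided the members unevenly. Its median was 1.47 per 10000 UMIs in the members (0 to 111.4) and 13.1 in the other cells (0 to 151.0). By a limit of 10 per 10000 UMIs set after the values were seen, 11 of 70 members (15.7%) lay above it, from 13.02 upward, and the highest of the rest was at 5.40. These 11 held 89.1% of the members' G2/M UMIs. Of the other cells 193 of 365 (52.9%) lay above the limit, and none of the 20 superficial cells did. The 11 members did not look more basal than the rest, with medians of 14.8 and 17.8 per 10000 UMIs for basal genes and of 325.6 and 440.9 for suprabasal genes. They had a median of 26880 UMIs, against 37708 in the rest, but were split in depth. Some held 15235 to 26880 UMIs and the others 58022 to 84902. The part that doublets of a cycling and a suprabasal cell play was not tested beyond the doublet calls, which marked 1 member and 4 other cells.

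Of 16 measured inhibitors and regulators of cycle entry 1 was higher and 3 were lower, beside 4.17% and 10.4% of all measured genes. Cdkn2b, the CDK4 and CDK6 inhibitor p15, was at 59.0 against 22.2 CPM, and Cdkn1a, the inhibitor p21, at 249.8 against 165.9. With the superficial cells among the other cells the log2 ratio of Cdkn2b went from 1.41 to 0.86. Ccnd2, a D-type cyclin, was at 183.9 against 405.7 CPM and Rbl1, the pocket protein p107, at 9.94 against 26.1. The remaining lower gene was Cdkn2c, chosen after its value was seen, at 7.95 against 16.96 CPM.

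Ranked over all genes, the 15 genes whose ratio had the highest lower limits were led by Tmprss11d. After it came Defb14, a β-defensin, which had a median of 0.45 per 10000 UMIs in the members and of 0 in the other cells, where the highest cell reached 0.95 against 63.2. Its ratio was 69.8 (51.7 to 96.4), and 44 members and 30 of the other cells had a UMI. Slpi, the secretory leukocyte protease inhibitor, was at 846.5 and 20.5 CPM, a ratio of 41.3 (36.8 to 46.4), and was seen in 64.3% of members and 13.4% of other cells at 10000 UMIs. In columnar stomach cells it was seen in 7.06%, and whether this is free RNA or their own expression was not tested. Wfdc5, another secreted protein with a WAP domain, had a ratio of 49.6 and Serpinb11, a clade B serpin, of 46.1. Reads of a single cell carried other members of the ranking. S100a9, a subunit of calprotectin, had a ratio of 68.7, but 62.3% of its UMIs lay in 1 of the 24 members with any, and for Klk14 the share was 72.7%. Several of these ratios depended on setting the superficial cells aside. With them among the other cells the log2 ratio of Tmprss11d went from 7.285 to 2.99. That of Defb14 went from 6.125 to 2.42 and that of Slpi from 5.37 to 1.96, while S100a9 moved less, from 6.10 to 5.25.

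**Figure D3:**
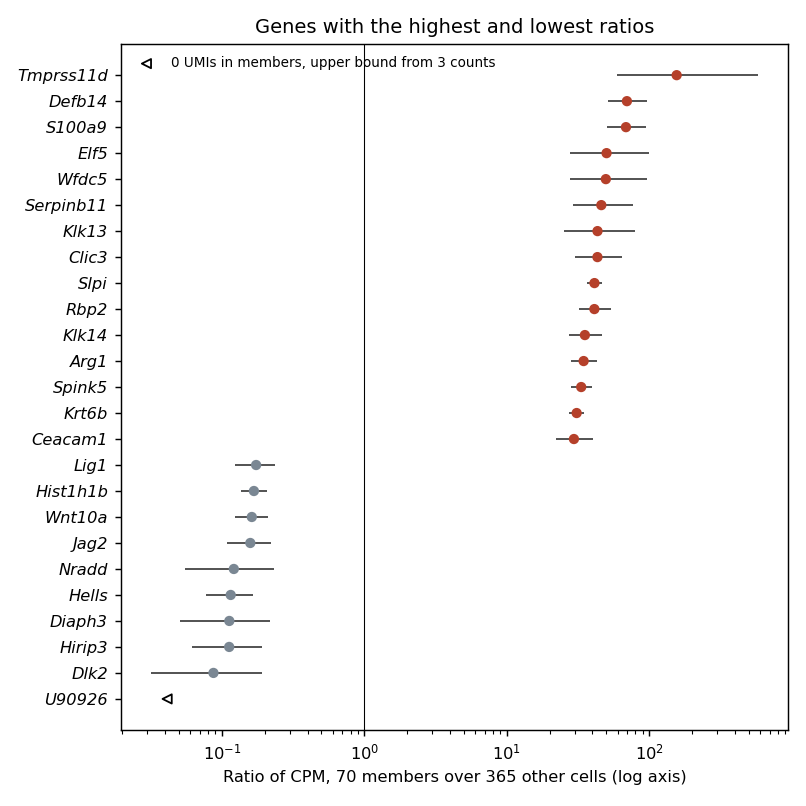
Points give the ratio of CPM in the 70 members over the 365 other cells (log axis) for the 15 genes leading in one direction and the 10 leading in the other, by the near limit of the interval, and bars the exact 95% interval for counting error; U90926 had no UMI in the members and is drawn as an upper bound. Tmprss11d has the highest ratio, 156.0, and the widest interval of those above 1.

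The remaining genes of that ranking were of mixed kinds. Rbp2, a cellular retinol binding protein, was at 171.6 and 4.16 CPM and Clic3, a chloride intracellular channel protein, at 86.1 and 1.99. Elf5, an ETS transcription factor of glandular and keratinocyte differentiation, was at 37.4 and 0.745 CPM, with UMIs in 18 members and 8 other cells. Arg1, arginase, was at 241.2 and 6.96 CPM and Ceacam1, an adhesion molecule, at 99.4 and 3.35. In the superficial cells Arg1 stood at 3614 CPM and Ceacam1 at 313.5, and with these cells among the other cells the log2 ratio of Arg1 went from 5.12 to 0.53.

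The 10 genes with the lowest upper bound included Hells and Dlk2, named above, and several genes of DNA replication and chromatin. Hirip3, a histone chaperone partner, was at 4.64 against 41.2 CPM, Lig1, DNA ligase 1, at 13.6 against 78.1, Hist1h1b, a replication-dependent linker histone, at 31.1 against 185.7, and Diaph3, a formin, at 2.98 against 26.5. Wnt10a, a WNT ligand of stratified epithelium, had a median of 0 per 10000 UMIs in the members, with a highest cell of 4.13, and of 1.09 in the other cells, with a highest cell of 5.49. The CPM were 19.9 and 122.6, a ratio of 0.162 (0.122 to 0.211). Jag2, a Notch ligand, was at 11.3 and 71.2 CPM, and Nradd, a death domain membrane protein, at 2.98 and 24.6. U90926 was at 0 in the members, but it was seen in only 7 of the other cells, with up to 75.9 per 10000 UMIs.

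Transcription factors of squamous differentiation leaned upward. Of 30 measured 12 were at least 2-fold higher and 1, Ovol2, lower, with a median log2 ratio of 0.45. Besides Elf5, Grhl3 was at 27.2 against 3.11 CPM, a ratio of 8.75 (6.08 to 12.7), Grhl1 at 27.8 against 3.67, and Hopx, a homeodomain-only cofactor, at 98.7 against 13.98. Counting the superficial cells among the other cells brought the log2 ratio of Hopx from 2.82 to 0.21. Grhl1 and Grhl3 encode grainyhead-like factors of barrier genes. Named after their values were seen, Ovol1 and Zfp750 had ratios of 6.18 and 6.86, and Klf4 of 2.06, while Sox2 (131.5 and 114.4 CPM) and Pax9 (74.9 and 81.6 CPM), which mark the esophageal lineage, stayed within 2-fold.

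Genes of the Notch pathway did not move as a group. Of 12 measured 2 were higher, 2 lower and 8 within 2-fold, with a median log2 ratio of 0.02. Notch3, a receptor, was at 44.7 against 16.03 CPM and Nrarp, a feedback inhibitor induced by Notch, at 97.1 against 26.4. The ligands Dll1 and Jag2 were lower, with ratios of 0.220 and 0.158. The receptor Notch1 and the target Hes1, chosen after their values were seen, were at 83.5 and 117.8 CPM and at 260.7 and 237.5 CPM. Notch1 was highest next to the members, at 171.4 CPM in ranks 71 to 140, and 112.3 and 102.3 CPM in the ranks after these.

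Junction genes were higher as a set of counts. Of 14 measured desmosome and gap junction genes 8 were at least 2-fold higher and none lower, with a median log2 ratio of 1.30. Dsc2, a desmosomal cadherin, was at 131.9 against 16.8 CPM, Gjb2, connexin 26, at 90.8 against 17.02, Dsg3 at 374.4 against 100.2 and Jup, plakoglobin, at 427.1 against 143.1. For Jup the lowest member held 0.69 per 10000 UMIs, and the medians were 3.85 and 1.18. Of 14 tight and adherens junction genes 6 were higher and none lower. Nectin4 had a ratio of 8.50 (7.02 to 10.3), Cldn4 of 12.3 and Cldn7 of 5.51, and Cdh1, E-cadherin, of 2.61. For Cldn4 and Cldn7 1 cell held 42.7% and 38.0% of the members' UMIs, and both are also genes of columnar cells, at 60.5 and 478.8 CPM in the stomach cells.

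Of 19 measured barrier lipid genes 6 were higher, 12 within 2-fold and 1, Asah2, lower, with a median log2 ratio of 0.56. Abca12, the lipid transporter of lamellar granules, was at 56.3 against 9.69 CPM, Cers3, a ceramide synthase, at 26.8 against 5.34, and Abhd5, a lipase cofactor, at 73.2 against 29.4. Of 10 measured phospholipase and eicosanoid genes 3 were higher, Alox15, Ptgr1 and the marker Pla2g4e, and 2 lower, Pla2g4a and Ptgs2. Ptgr1, prostaglandin reductase 1, had a median of 3.67 per 10000 UMIs in the members and 0.54 in the other cells, and a ratio of 5.28. In the defense list 9 of 14 measured genes were higher and none lower, with a median log2 ratio of 1.58. Summed, that list came to 2474 CPM in the members, 1212 in the other cells and 10327.5 in the superficial cells. In the Ly6 family 5 of 9 were higher, the marker Ly6d among them, and none lower. Lypd3, a laminin-binding surface protein, was at 367.4 against 53.1 CPM, and Ly6c1 did not pass 2-fold, at 358.5 against 400.4. Psca and Ly6g6c were at 157.0 and 23.9 CPM in the members, 17.7 and 2.61 in the other cells, and 34978 and 632.3 in the superficial cells. With the superficial cells among the other cells both turned, to log2 ratios of -3.32 and -0.36, and 1 member held 50.2% of the members' UMIs of Psca.

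Other relatives of the marker genes were read in the same way, beside shares of 4.17% higher and 10.4% lower over all measured genes. Of 8 measured calpain genes 2 were higher, Capn2 and the marker Capns2 itself, while Capns1, the ubiquitous small subunit, was at 282.0 against 228.2 CPM. Of 14 measured genes of small GTPases and PAK kinases 1, the marker Rhov, was higher, and Rhod, Rac1 and Cdc42 had ratios from 1.23 to 1.49. Of 13 amino acid transporters none was higher and 2 were lower, Slc7a8 at 3.98 against 24.2 CPM and Slc6a6, the taurine transporter, at 24.2 against 71.2. Among 10 channels and water pores 3 were higher, Aqp3, Clca2 and Slc9a3r1, and 2 lower, Slc12a2 and Trpv4. Aqp3, which carries water and glycerol, was at 954.2 against 414.5 CPM, and Slc9a3r1, a scaffold protein, at 162.7 against 63.7.

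Growth factor, WNT, metabolic, stress and wound genes were counted next. Over all measured genes 4.17% were at least 2-fold higher and 10.4% lower. Calls of few genes are thus not read as a shift of their list. Of 10 measured EGF ligand and receptor genes 1 was higher and 1 lower, Erbb2 at 23.2 against 9.94 CPM and Nrg1 at 22.9 against 112.2. Of 7 WNT genes of squamous epithelium 2 were lower, Wnt10a and Wls, a carrier of WNT ligands (38.1 against 76.4 CPM). Of 25 glycolysis and hypoxia genes none was higher and 2 were lower, Adm and Car9. Of 20 dissociation stress genes 1, Gadd45b, was higher, and all 9 mitochondrially encoded transcripts stayed within 2-fold. Among 10 measured genes of wounded epithelium 4 were higher, Krt6b, Krt16, Sprr1b (205.7 against 14.5 CPM) and Emp1 (226.9 against 63.7 CPM), and 4 lower, among them Cav1, Hmga2 and Ptgs2. The lower genes named here by symbol alone were chosen after their values were seen.

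Markers of other cell types were then examined. The 10 fibroblast and 5 erythroid genes had no UMI in the members, the endothelial and smooth muscle lists came to 0.331 and 0.663 CPM, and Cd68 was the only immune gene of 10 with any, at 48.0 CPM against 26.8. Of 8 neural genes 3 were seen, and Tubb3, a neuronal tubulin, was at 37.4 CPM in the members and 5.03 in the other cells, with UMIs seen in 21.4% and 4.38% of cells at 10000 UMIs. Of 8 measured columnar genes none was higher and 4 were lower, Cldn18, Krt7, Pigr and Tspan8. The direction of Pigr turned with the weight per cell and with the upper limits on UMIs and genes, from a log2 ratio of -1.21 to as much as 1.26, and 1 member held 44.8% of the members' UMIs of it. Krt19 had a ratio of 1.52, and the columnar list summed to 302.5 CPM in the members, 257.7 in the other cells and 7151 in the stomach cells.

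Levels were then followed along the ranking, through the lowest 155 cells, the 140 ranked above them, ranks 71 to 140, the members, and the superficial cells. Suprabasal genes stood at 12082, 12748 and 18591 CPM in the 3 bands of other cells and at 47108 in the members. Krt13 followed at 1144, 1468, 3348 and 10878 CPM. Basal genes were at 6467, 6064 and 5530 CPM before the 2615 CPM of the members and the 1518 of the superficial cells. G1/S genes were at 1925, 1525, 1121, 456 and 204 CPM. Cells ranked just below the members were thus intermediate in these sums, nearer to the lower ranks than to the members.

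**Figure D4:**
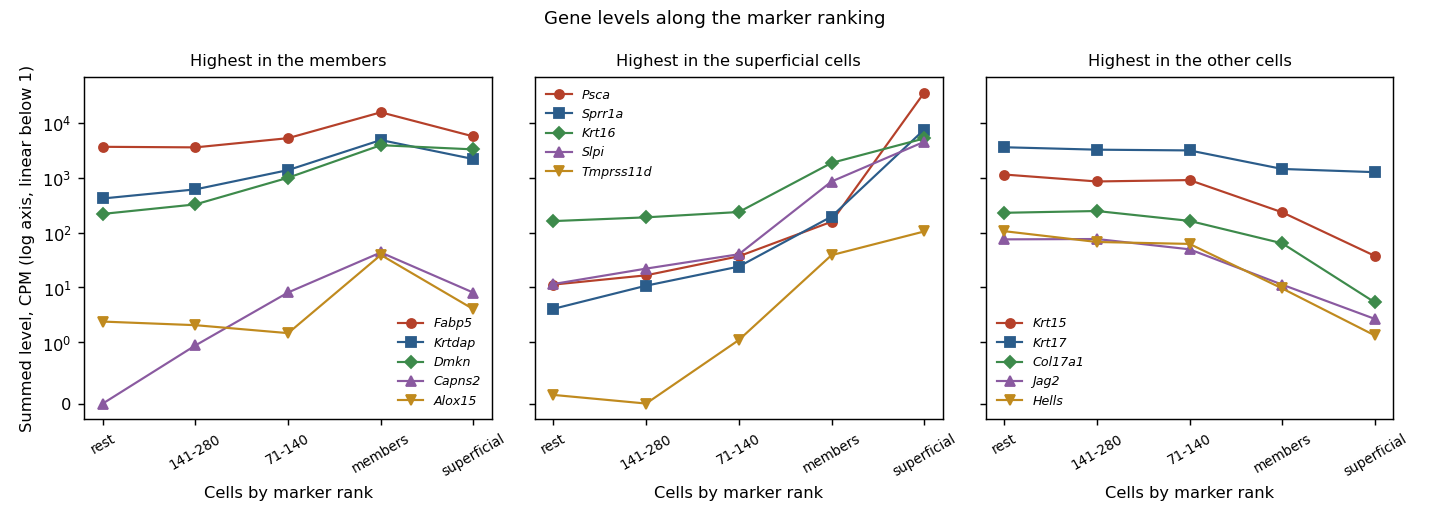
Summed CPM (log axis that is linear below 1) of 15 genes in the 3 rank bands of other cells, the 70 members and the 20 superficial cells, with genes highest in the members at left, highest in the superficial cells in the middle and highest among other cells at right. Fabp5 goes from 5206 CPM in ranks 71 to 140 to 15377 in the members and 5589 in the superficial cells, where a few cells carry the sum and the median per cell, 4.33 per 10000 UMIs, is below the 34.1 of ranks 71 to 140, while Psca goes from 157.0 CPM in the members to 34978 in the superficial cells; these genes were picked with their values in view.

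The members also varied along their own ranking. The 35 with the higher marker level had 1506 CPM of basal genes and the 35 with the lower level 4014. Krt15 was at 64.2 and 446.4 CPM in these 2 sets, and Lamb3 at 7.13 and 44.9. In the other direction Slpi was at 1270 and 312.3 CPM, Elf5 at 62.4 and 5.99, Alox15 at 65.4 and 5.99, and Krt13 at 14203 and 6686. Late squamous genes differed less, at 6890 and 4878 CPM, and G1/S genes at 437.3 and 479.3 CPM. G2/M genes were higher in the set with the higher marker level, at 1374 and 916.0 CPM, though 11 members held most of these UMIs. Krt14 was nearly level, at 5981 and 5741 CPM. The lower-ranked members thus held more of the basal genes and less Krt13 than the higher-ranked ones.

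Promoter sequence was read for the genes that led the ranking, to show what lies upstream of them. RefSeq promoters (build GRCm38.p6, 250 bases before to 50 after each start) matched 5 of the 7 markers, 10 of the 15 leading higher genes and 8 of the 10 leading lower genes. With the first listed start of each gene and either strand, the AP-1 motif TGANTCA occurred in 2 of the 10 higher genes, 0 of the 5 markers and 0 of the 8 lower genes, and in 7.93% of 27025 promoters. A KLF motif, GGGNGNGG, occurred in 5 of the 10 higher genes and 4 of the 5 markers, and in 49.1% of all promoters. The grainyhead motif AACCNGTT was in 1 of the 10 higher genes and 2.01% of all promoters, and the TEAD motif ACATTCC in 1 of the 10 and 3.85%. These matches are descriptions and not binding sites. The 2 higher genes with AP-1 matches are shown by the 250 bases before their start, 5′ to 3′ on the strand of the gene, with the motif in capitals. Tmprss11d (chr5:86373388-86373637, minus strand) has 1 match that begins 39 bases before the start, and Serpinb11 (chr1:107362064-107362313, plus strand) has 2, beginning 181 and 76 bases before it.
Tmprss11d: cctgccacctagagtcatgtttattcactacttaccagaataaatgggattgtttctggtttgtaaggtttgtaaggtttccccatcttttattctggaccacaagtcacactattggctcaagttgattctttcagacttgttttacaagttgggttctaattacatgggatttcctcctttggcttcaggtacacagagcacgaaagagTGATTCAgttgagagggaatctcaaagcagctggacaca
Serpinb11: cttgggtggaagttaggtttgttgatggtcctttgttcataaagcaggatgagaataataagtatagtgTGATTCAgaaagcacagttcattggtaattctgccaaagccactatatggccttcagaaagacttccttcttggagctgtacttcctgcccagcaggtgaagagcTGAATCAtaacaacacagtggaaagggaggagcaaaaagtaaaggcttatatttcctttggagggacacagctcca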

How the data were processed

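Single-cell RNA-seq of pooled esophageal and stomach organoids was analysed, 1 sample per tissue. The authors made the libraries with a droplet kit that reads the 3′ end of transcripts and demultiplexed the sample tags with deMULTIplex. The submitters' processing notes name Cell Ranger 3.1.0 and build mm10. The deposited matrix holds raw UMI counts per gene and barcode, without normalization, and the deposited tag table holds tag counts and the tissue called for each barcode. Cells were filtered, ranked and split as the report states, and the summed UMIs of each group were scaled to its own total (CPM). Sums have Garwood intervals, ratios conditional binomial intervals and shares Clopper-Pearson intervals, all 95%. UMIs of free RNA were gauged in 85 columnar stomach cells with at most 25% squamous keratins. Expression of a gene by these cells themselves was not told apart from free RNA. Doublets were treated by the tag calls and the keratin share, and Scrublet (scanpy 1.11.5) was an alternative. Depth is given in the report and limits genes of few UMIs.

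Gene lists (36) were written from textbook knowledge. The members and lists were chosen with earlier results of these data known. Named genes were the 15 with the highest lower bound and the 10 with the lowest upper bound of the ratio, among genes with at least 50 UMIs and 20 CPM in the higher group and, for higher genes, UMIs in at least 10 members, without the genes that chose the cells, mitochondrial and ribosomal protein genes and provisional models, plus up to 4 genes per list with the largest absolute log2 ratio among those of at least 20 CPM in either group. Some genes of the rule are not reported here. Other genes are said to be chosen after their values were seen, or chose the cells. In all, 19 alternatives were tried. The ratio script was tested on simulated data.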

Additional observations from a re-analysis of the deposited data

Results flagged for a closer look

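Barcodes that no comparison used were read for the 6 markers other than Ly6d, since these 6 came to 2.87 CPM (1.80 to 4.35) in columnar stomach cells. In 274 squamous esophageal barcodes under 10000 UMIs, with a median of 1754.5 UMIs, they came to 172.2 CPM (144.7 to 203.4), and Ly6d to 2478 CPM, so that marker-rich barcodes also lay below the depth limit. In 110 squamous esophageal barcodes with over 20% mitochondrial UMIs they came to 77.9 CPM (58.5 to 101.6). In 43 squamous barcodes of the stomach tag, with a median of 1067 UMIs, they came to 61.5 CPM (16.8 to 157.4), from 4 UMIs. What these barcodes are was not tested.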

How the results depend on the processing

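The median log2 ratios of basal (-1.60 to -1.15) and suprabasal genes (1.70 to 2.40) stayed within the spread of their genes under all 19 alternatives. With a minimum of 20 UMIs per gene 607 genes were at least 2-fold higher and 1616 lower. This minimum admits more genes than the 8826 of the main setting, so these counts do not compare directly with 368 and 920. Counting the 20 superficial cells among the other cells brought late squamous genes to 1.35 and turned Psca (-3.32) and Ly6g6c (-0.36). For G1/S genes the median was -2.58 without the member cell that holds most of each gene and -1.66 with markers of equal weight. For G2/M genes it was -1.36 with the top 50 cells, -1.19 with the top 100, -1.37 with ratios centered on the median of all genes, -1.33 with at least 5000 UMIs and likewise -1.33 with at most 10% mitochondrial UMIs, -1.23 with at most 80000 UMIs and fewer than 8500 genes, -1.76 without Scrublet doublets, -2.05 without the cell that holds most of each gene, -1.15 without Ly6d in the score and -1.29 with markers of equal weight. Pigr, a columnar gene, went to 0.020 with equal weight per cell and to 1.26 under the upper limits on UMIs and genes. The cause of these shifts was not tested. Of 90 named genes at least 2-fold apart, 87 kept their sign under every alternative, the exceptions being Psca, Ly6g6c and Pigr, and 79 stayed at least 2-fold apart. The others that fell under 2-fold were Arg1, Hopx, Cdkn2b, Ccnd2, Slc12a2, Car9, Wls and Gadd45b. The 90 include the 7 markers and the selecting keratins Krt6a and Krt13. They also include the 15 higher and 10 lower genes taken for their ratios in these same cells. Their kept signs were thus partly fixed by the choice. The choice of cells depended on the rule. Of the 70 members 52 were picked without Ly6d, 53 with markers of equal weight, 47 with at least 5000 UMIs per cell, and 60 where no superficial cells were set aside. No paired analysis was possible because each tissue was 1 sample. Depth limits the rarer genes, many of which rest on few cells.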

Other observations

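Other gene families were read after their values were seen. Of 13 kallikrein-related peptidases, secreted serine proteases that act in the shedding of squamous cells, 6 were measured, 5 were at least 2-fold higher in the members and none lower. Klk10 had UMIs in 51 of 70 members and was at 651.4 CPM against 32.2, a ratio of 20.2 (18.3 to 22.3). For Klk10 1 member held 27.4% of the members' UMIs, and the medians were 0.78 and 0.16 per 10000 UMIs. Klk12 was at 49.0 against 1.43 CPM, with 44.6% of the members' UMIs in 1 cell, and Klk11 at 53.3 against 9.69. Klk8 was at 20.2 against 10.2 CPM, a ratio of 1.97, and Klk5 and Klk7, the main kallikreins of skin, had no UMI in the members. All measured kallikreins were higher still in the superficial cells. There Klk10 was at 2799 CPM, Klk12 at 564.0, Klk11 at 195.6 and Klk8 at 167.5.

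Of 5 measured alpha class glutathione transferases, which conjugate lipid peroxidation products, 4 were higher and none lower. Gsta4 was at 6502 against 1698 CPM and Gsta1 at 1124 against 74.6, and Gsta1 was seen in 68 of 70 members. Gsta1, Gsta2 and Gm3776 share much of their sequence, so their counts may have been affected. Gsta3 was at 33.1 against 51.7 CPM. Of 12 measured genes of retinoid binding and metabolism 3 were higher and 2 lower. Besides Rbp2, Aldh1a3, which makes retinoic acid, was at 41.1 against 1.24 CPM, with UMIs in 19 members, 1 of which held 62.1% of them, and in 13 other cells. In the superficial cells Aldh1a3 was at 1066 CPM, above the members, and Rbp2 at 132.6, below the 171.6 of the members. Stra6, a retinol uptake receptor, was at 3.64 against 12.5 CPM, and Cyp26b1, which degrades retinoic acid, at 1.99 against 8.76.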
